A study of Mus musculus with 11 samples.

Results

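The genes described here are 46 mouse genes for the receptors, secreted and membrane-bound modulators, and nuclear effectors of Wnt signalling, out of 21883 protein-coding genes on the standard chromosomes. They were taken by name: 15 receptors (Fzd1 to Fzd10, Lrp5, Lrp6, Ror1, Ror2 and Ryk), 7 agonists and agonist receptors (Rspo1 to Rspo4 and Lgr4 to Lgr6), 11 secreted antagonists, 4 antagonists at the cell surface, 7 proteins of cytoplasm and nucleus, and 2 genes for ligand release. RNA rows were found by RefSeq accession. Histone marks were read from peak lists at the start of each gene, plus and minus 1 kb. The rule itself used no measured value, but the genes and lists were chosen with earlier results of these data known.

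RNA was read in metanephric mesenchyme and in ureteric bud of wild-type C57BL/6 embryos at E11.5, separated by manual dissection. They are called mesenchyme and bud below, and the sorted chromatin samples are called cap mesenchyme and ureteric cells. Chromatin was profiled in Cited1-RFP+ cap mesenchyme from Cited1nuc-TagRFP-T kidneys at E18.5, in Hoxb7-GFP+ ureteric epithelium from Hoxb7myr-Venus/+ kidneys at E15.5, and in E14 embryonic stem (ES) cells of the 129/Ola strain at passage 15. The metanephric mesenchyme and its later form, the cap mesenchyme, hold the progenitors of the nephron. The ureteric bud and epithelium are the branching tube that later forms the collecting ducts. Cap mesenchyme cells carry a red reporter under Cited1 and were of (C57BL/6 x DBA)F1 origin, kept on C57BL/6J (N5), while ureteric cells carry a Hoxb7-driven reporter and were of (C57BL/6J x CBA/J)F2 origin, also kept on C57BL/6J, so the reporter, the age and the strain of origin differ together between the chromatin populations. Unfixed chromatin was cut by micrococcal nuclease before precipitation of H3K4me3, found at promoters open to transcription, or of H3K27me3, set by a Polycomb repressive complex. With 1 sample in every group there is no replicate check, and no p-value or SD is given.

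Wnt ligands are made lipid-bound by Porcn, carried to the cell surface by Wls, and bind a Frizzled receptor together with Lrp5 or Lrp6. The signal stops the Axin complex from destroying beta-catenin (Ctnnb1), which then acts in the nucleus with the DNA-binding factors Tcf7, Tcf7l1, Tcf7l2 and Lef1. R-spondins bound to Lgr receptors strengthen the signal by removing Znrf3 and Rnf43, membrane ubiquitin ligases that clear Frizzled from the surface. Sfrp proteins, Frzb and Wif1 bind Wnts, Dkk proteins act on Lrp5 and Lrp6 together with Kremen, and Notum cuts the lipid off the ligand. In the developing kidney, Wnt9b from the ureteric bud acts on the neighbouring mesenchyme, which both renews its progenitors and starts nephron formation under this signal.

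Promoter sequences are given for 6 genes, from RefSeq on build GRCm38.p6, read 5′ to 3′ in the direction of the gene, from 250 bases before to 50 bases after the start. The table of sequences matched 28 of the 46 genes, and its start can differ from the outermost start used for the marks. The printed start lay 29 bp inside the outermost start in Rspo1, 280 bp in Rspo4 and 369 bp in Tcf7. The printed bases of Rspo4 and Tcf7 therefore all lie inside the gene. In Rnf43, Dkk1 and Fzd7 the starts were the same. In Rspo1, Rspo4, Rnf43 and Tcf7 the capitals mark CG dinucleotides, and these genes are shown because their RNA or marks differed most between the kidney populations. In Dkk1 and Fzd7 the capitals mark a match to CTTTG followed by 2 bases that are each A or T, on either strand, the letters read by Tcf and Lef factors.
Rspo1 (chr4:124986180-124986479, plus strand): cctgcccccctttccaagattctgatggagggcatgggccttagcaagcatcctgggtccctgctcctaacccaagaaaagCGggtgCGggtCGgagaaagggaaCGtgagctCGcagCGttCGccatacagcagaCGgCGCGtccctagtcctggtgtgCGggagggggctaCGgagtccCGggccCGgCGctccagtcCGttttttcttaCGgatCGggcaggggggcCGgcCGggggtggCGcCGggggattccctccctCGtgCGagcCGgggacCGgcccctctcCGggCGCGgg
Rspo4 (chr2:151842677-151842976, plus strand): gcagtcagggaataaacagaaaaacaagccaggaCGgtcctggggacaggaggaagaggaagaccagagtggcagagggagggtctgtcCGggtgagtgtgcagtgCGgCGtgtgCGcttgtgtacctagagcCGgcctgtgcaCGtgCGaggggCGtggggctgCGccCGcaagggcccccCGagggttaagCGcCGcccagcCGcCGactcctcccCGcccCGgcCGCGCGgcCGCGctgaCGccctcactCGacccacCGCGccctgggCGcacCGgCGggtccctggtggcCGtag
Rnf43 (chr11:87662837-87663136, plus strand): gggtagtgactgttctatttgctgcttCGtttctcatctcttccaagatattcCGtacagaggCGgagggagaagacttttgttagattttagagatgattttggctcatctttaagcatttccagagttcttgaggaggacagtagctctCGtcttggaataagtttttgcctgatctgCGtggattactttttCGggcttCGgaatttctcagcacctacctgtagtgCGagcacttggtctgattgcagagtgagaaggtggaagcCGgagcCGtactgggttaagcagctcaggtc
Tcf7 (chr11:52282965-52283264, minus strand): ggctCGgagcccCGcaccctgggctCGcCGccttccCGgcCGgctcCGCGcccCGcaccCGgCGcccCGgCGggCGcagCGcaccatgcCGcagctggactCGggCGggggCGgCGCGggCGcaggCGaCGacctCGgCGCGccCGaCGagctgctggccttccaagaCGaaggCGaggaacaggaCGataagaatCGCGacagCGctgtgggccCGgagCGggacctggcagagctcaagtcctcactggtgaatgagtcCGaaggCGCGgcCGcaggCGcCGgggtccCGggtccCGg
Dkk1 (chr19:30549447-30549746, minus strand): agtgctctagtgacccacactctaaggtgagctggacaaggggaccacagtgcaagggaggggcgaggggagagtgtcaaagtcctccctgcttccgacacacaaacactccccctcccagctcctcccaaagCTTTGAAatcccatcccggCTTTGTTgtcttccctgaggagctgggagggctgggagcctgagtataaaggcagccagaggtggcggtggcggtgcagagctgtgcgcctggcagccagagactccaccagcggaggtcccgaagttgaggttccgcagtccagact
Fzd7 (chr1:59481897-59482196, plus strand): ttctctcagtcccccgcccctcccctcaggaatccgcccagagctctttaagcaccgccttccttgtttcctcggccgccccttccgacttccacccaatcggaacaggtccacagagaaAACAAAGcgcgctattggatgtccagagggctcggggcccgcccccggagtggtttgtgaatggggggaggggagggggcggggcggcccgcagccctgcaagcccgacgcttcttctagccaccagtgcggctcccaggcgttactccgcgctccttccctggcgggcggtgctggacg
Dkk1 held 2 matches, CTTTGAA beginning 117 bases before its start and CTTTGTT beginning 98 bases before it. Fzd7 held 1, AACAAAG, which is CTTTGTT on the other strand, beginning 130 bases before its start. These were 2 of the 28 matched genes, or 7.14%, against 14.9% of 17491 protein-coding promoters of the same length. A match is a string of letters, and no factor binding was measured. CG dinucleotides numbered 29 in Rspo1, 31 in Rspo4, 45 in Tcf7, 24 in Fzd7, 10 in Rnf43 and 9 in Dkk1, beside a median of 24.5 over the 28 genes and 13 over all promoters. The 28 ranged from 9 in Dkk1 to 53 in Fzd9, and their median content of G and C was 67.5%, against 56.3% over all promoters. Promoters of all protein-coding genes that carried both marks in ES cells had a median of 21 CG dinucleotides and 64% G and C.

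The RNA values are the FPKM of the deposited Cuffdiff table, fragments per kilobase of transcript and scaled to the mapped fragments of the library, summed over the transcripts of a gene. The deposited FPKM ran higher in bud for most genes: in 9574 genes that reached 1 FPKM in both libraries, the median difference was -0.46 on the log2(FPKM + 1) scale. Read totals are not in the table, so the depth behind an FPKM or a peak is unknown. In the dissected tissues, 7 of 8 nephron progenitor markers were at least 4-fold higher in mesenchyme and 10 of 10 bud markers in bud. Progenitor markers summed to 209 FPKM in mesenchyme and 11.1 in bud, and bud markers to 16.7 FPKM in mesenchyme and 2546 in bud. The exception was Cited1 itself, at 2.78 FPKM in mesenchyme and 8.34 in bud. All 6 renal stroma markers were also 4-fold higher in mesenchyme, with a sum of 280 FPKM there and 1.98 in bud, and the sums of 5 endothelial markers were 29.1 and 3.09 FPKM. The sums of 5 early nephron markers were 13.3 FPKM in mesenchyme and 54.4 in bud, but the list was split. Wnt4 (4.12 FPKM in mesenchyme and 0.552 in bud) and Fgf8 (2.48 and 0.136) were higher in mesenchyme. Lhx1 (0.0532 and 18.4), Jag1 (2.18 and 23.8) and Pax8 (4.41 and 11.6) were higher in bud. Of the 5 endothelial markers, 4 had no mark in cap mesenchyme and H3K4me3 alone in ureteric cells. Of 5 pluripotency markers, Pou5f1, Nanog and Tdgf1 were listed at 0 FPKM in both tissues and carried H3K4me3 without H3K27me3 in ES cells. Zfp42 was in the same state in ES cells, at 0.0254 FPKM in mesenchyme and listed at 0 in bud. Esrrb had neither mark in ES cells, with 0.0313 FPKM in mesenchyme and 0.012 in bud.

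The question put to the RNA was which side of the mesenchyme and bud pair holds the receptors, agonists and antagonists. Rspo1 and Rspo3 lay on the mesenchymal side, while the surface antagonists that R-spondins act on, the ligand carrier Wls, and Tcf7 and Axin2 lay on the bud side. Of these, Znrf3 and Wls were under the 4-fold rule given below. Receptors and secreted antagonists were found on both sides. Of all 11239 tested genes, 8707 were higher in bud as deposited and 5754 after rescaling to a common median. Of the 46 genes, 37 reached 1 FPKM in either library. At least 4-fold differences, counted where the log2 difference was 2 or more and the higher library reached 2 FPKM, were found for 3 genes in mesenchyme (Rspo1, Rspo3 and Frzb) and for 6 in bud (Tcf7, Rnf43, Fzd6, Fzd8, Dkk1 and Axin2). Among 11239 protein-coding genes at 1 FPKM or more in either library, the same rule took 1.83% in mesenchyme and 4.15% in bud, against 8.11% and 16.2% of the 37. The median difference of the 37 was -0.77, against -0.47 over all tested genes. With both libraries rescaled to a common median, the count was 5 in mesenchyme, with Fzd1 and Sfrp2 added, and 3 in bud, with Fzd8, Dkk1 and Axin2 lost, while all genes gave 246 and 300. Fewer cells of a type and less RNA per cell cannot be told apart in dissected tissue.

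**Figure D1:**
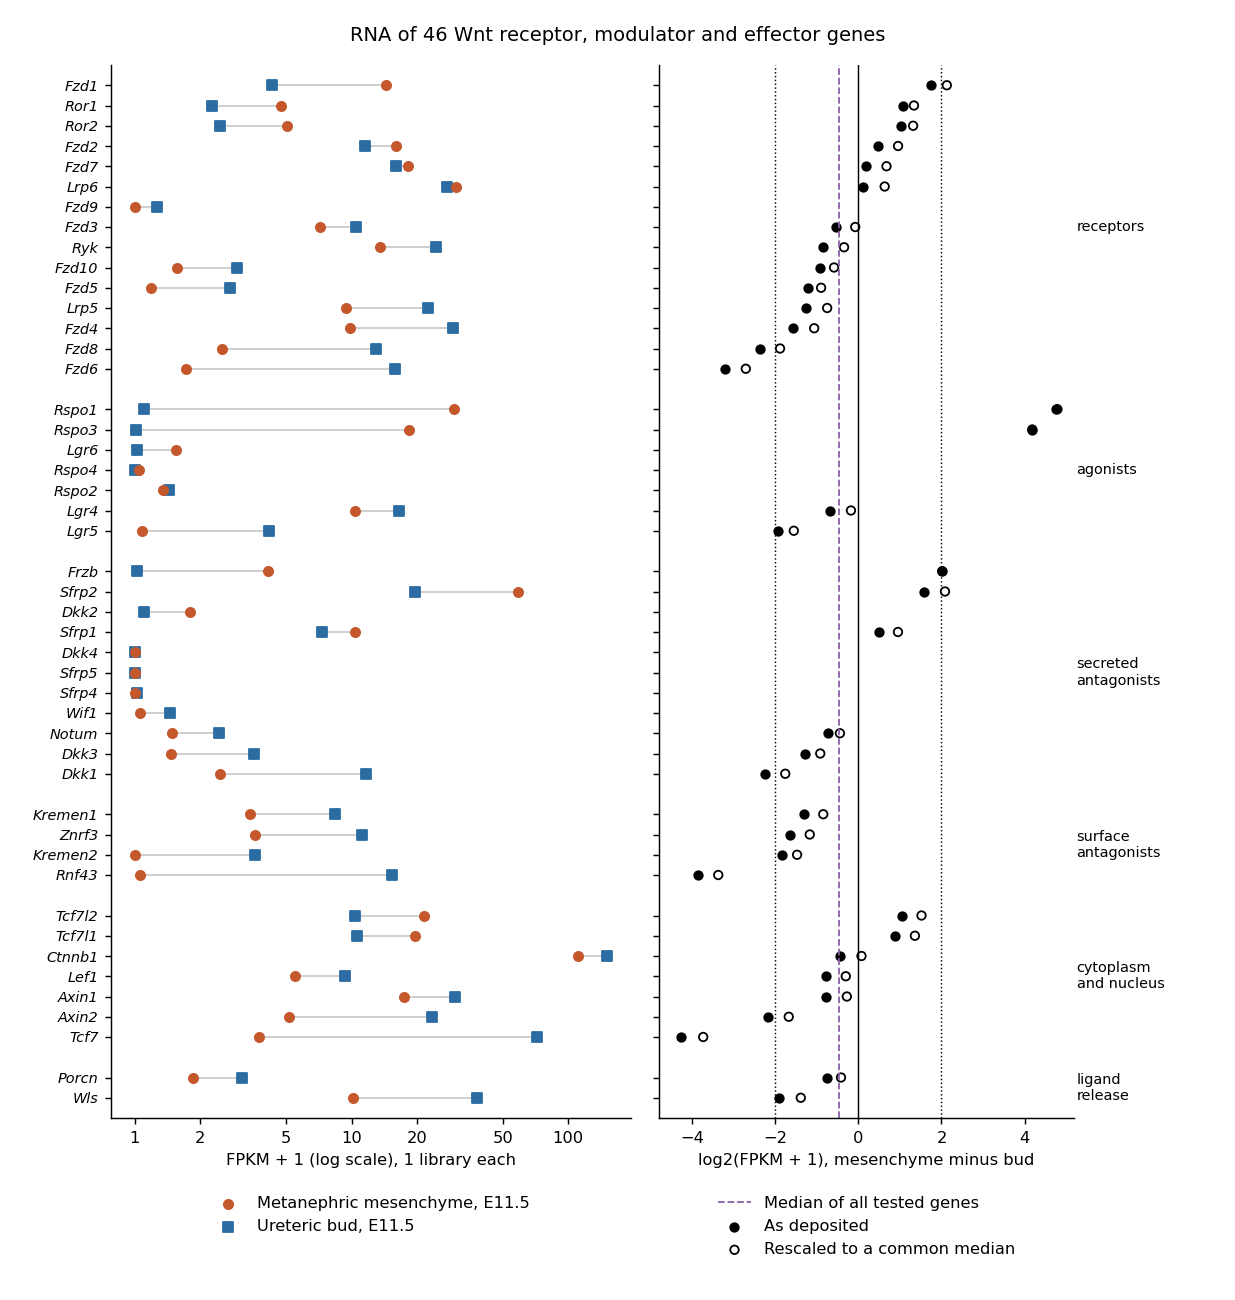
RNA of the 46 genes by role, as FPKM + 1 on a log axis in mesenchyme (circles) and bud (squares), and as the log2 difference for the 37 genes at 1 FPKM or more in either library (right; filled points as deposited, open points rescaled to a common median, dotted lines at 2 and -2, dashed line at the median of all tested genes, -0.47). Rspo1 and Rspo3 stand at 4.75 and 4.18 on the mesenchymal side, and Tcf7, Rnf43 and Fzd6 at -4.26, -3.86 and -3.20 on the bud side.

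Among the receptors, Frizzled RNA was divided between the tissues by gene. Fzd6, on chromosome 15 (39006149 to 39038192, plus strand, mm10), stood at 0.726 FPKM in mesenchyme and 14.9 FPKM in bud, a difference of -3.20. Fzd8 stood at 1.53 and 12.0 FPKM in the same order, a difference of -2.37. Both are Frizzled receptors, and bud RNA lay above mesenchymal RNA for each. A transcript of 331 bp antisense to Fzd8 was listed apart at 3.16 FPKM in mesenchyme and 23.7 FPKM in bud, and was not added to the gene. Fzd4, a receptor for Wnts and for norrin, was at 8.84 FPKM in mesenchyme and 28.3 in bud, with a difference of -1.57 that fell short of the 4-fold rule.

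Fzd1 leaned the other way, with 13.4 FPKM in mesenchyme and 3.30 in bud, a difference of 1.74. Ror1, a receptor tyrosine kinase of Wnt5a signalling, was at 3.74 FPKM in mesenchyme and 1.27 in bud. Ror2, its close relative, was at 4.03 and 1.47 FPKM in that order. These differences, 1.07 and 1.02, were under the 4-fold rule. For Fzd7, Fzd2 and Lrp6 the intervals of the most abundant transcript overlapped between the tissues in the authors' deposited table. Fzd7 was at 17.3 FPKM in mesenchyme and 15.1 in bud, and Fzd2 at 15.1 and 10.54. Lrp6, the co-receptor of the beta-catenin pathway, was at 29.2 FPKM in mesenchyme and 26.7 in bud. Lrp5, which acts beside it, was at 8.47 FPKM in mesenchyme and 21.6 in bud. Ryk, a pseudokinase receptor, was at 12.6 and 23.5 FPKM in the same order. Fzd3 was at 6.18 and 9.49 FPKM, while Fzd5, at 0.188 and 1.75, and Fzd10, at 0.570 and 1.96, were low in both libraries. Of the 14 tested receptors, 6 were higher in mesenchyme and 8 in bud, also after rescaling, which is 42.9% in mesenchyme, against 22.5% of all tested genes as deposited and 48.8% after rescaling.

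R-spondins gave the most one-sided values on the mesenchymal side. Rspo1 (chromosome 4, 124986401 to 125009102, plus strand) was at 28.6 FPKM in mesenchyme and 0.101 FPKM in bud, a difference of 4.75. Rspo3 (chromosome 10, 29453106 to 29535867, minus strand) was at 17.4 FPKM in mesenchyme and 0.0155 FPKM in bud, a difference of 4.18. In the authors' deposited table the most abundant Rspo1 transcript had an interval of 24.4 to 32.9 FPKM in mesenchyme and of 0 to 0.0907 FPKM in bud. The authors' deposited table gave Rspo3 14.7 to 20.1 FPKM in mesenchyme and 0 to 0.0611 FPKM in bud. Those intervals cover the estimate within a library and say nothing of other embryos. Rspo1 and Rspo3 moved with the stromal markers as well as with the progenitor markers, and the part of the stromal cells in these values was not tested.

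The R-spondin receptors Lgr4 and Lgr5 were not on that side. Lgr5 was at 0.0847 FPKM in mesenchyme and 3.16 FPKM in bud, a difference of -1.94, just outside the 4-fold rule. With a pseudocount of 0.1 FPKM in place of 1, Lgr5 passed it, as did Dkk3 and Kremen2. Lgr4 was the most abundant of the 3 Lgr genes in both tissues, at 9.38 FPKM in mesenchyme and 15.53 in bud. Rspo2, Rspo4 and Lgr6 were under 1 FPKM in both libraries.

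Secreted antagonists were found on each side. Frzb, which binds Wnts outside the cell (chromosome 2, 80411970 to 80447396, minus strand), was at 3.13 FPKM in mesenchyme and 0.0273 FPKM in bud, a difference of 2.01 that was the closest to the limit of all 9 called genes. Sfrp2, of the same family, was the most abundant antagonist in both tissues, with 57.7 FPKM in mesenchyme and 18.6 in bud, a difference of 1.58. Sfrp1 was at 9.35 and 6.29 FPKM in that order. These 3 were the members of this family that reached 1 FPKM, and all were on the mesenchymal side, where 22.5% of all tested genes lay as deposited and 48.8% after rescaling.

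Dkk1, the inhibitor of Lrp5 and Lrp6 (chromosome 19, 30545876 to 30549496, minus strand), lay on the bud side, at 1.46 FPKM in mesenchyme and 10.6 FPKM in bud, a difference of -2.24. Its most abundant transcript ran from 0.941 to 1.98 FPKM in mesenchyme and from 8.75 to 12.4 FPKM in bud in the authors' deposited table. Dkk3, a divergent member of the Dkk family, was at 0.467 FPKM in mesenchyme and 2.56 in bud, or 0.251 and 1.16 by accession alone. Notum, the secreted enzyme that removes the lipid of Wnt, was at 0.478 and 1.46 FPKM in the same order. These Notum values rest mostly on transcripts matched by locus, and by accession alone Notum had 0.146 FPKM in mesenchyme and 0.0481 in bud, so no side is given for it. Sfrp4, Sfrp5, Wif1, Dkk2 and Dkk4 were under 1 FPKM in both.

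All 4 antagonists of the cell surface were higher in bud, also after rescaling, while 8707 of all 11239 tested genes were higher in bud as deposited and 5754 after rescaling. Rnf43 (chromosome 11, 87663087 to 87735539, plus strand) stood at 0.0532 FPKM in mesenchyme and 14.3 FPKM in bud, a difference of -3.86. Part of the Rnf43 sum came from 2 transcripts matched by locus, and by accession alone the gene was listed at 0 FPKM in mesenchyme and 8.65 FPKM in bud. Znrf3, the sister ligase, was at 2.57 FPKM in mesenchyme and 10.2 in bud, a difference of -1.64. Kremen1 was at 2.39 and 7.35 FPKM in that order. Kremen2 was listed at 0 FPKM in mesenchyme and had 2.57 FPKM in bud. Kremen proteins are receptors for Dkk1, whose own RNA was also higher in bud.

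In cytoplasm and nucleus, Tcf7 gave the widest difference of all 46 genes on the bud side. This DNA-binding partner of beta-catenin (chromosome 11, 52246527 to 52283383, minus strand) stood at 2.74 FPKM in mesenchyme and 70.5 FPKM in bud, a difference of -4.26. Its relatives leaned the other way: Tcf7l1, often a repressor in the absence of signal, was at 18.53 FPKM in mesenchyme and 9.55 in bud, and Tcf7l2 at 20.5 and 9.42. By summed FPKM, the most abundant of the 4 Tcf and Lef genes was Tcf7l2 in mesenchyme and Tcf7 in bud. By accession alone Tcf7l2 had 17.3 FPKM in mesenchyme, below Tcf7l1, and 4.69 in bud. Taken from its most abundant transcript alone, Tcf7l2 passed the 4-fold rule in mesenchyme. Lef1 was at 4.48 FPKM in mesenchyme and 8.33 in bud, and the intervals of its most abundant transcript overlapped in the authors' deposited table.

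Axin2, a scaffold of the destruction complex that is widely used as a readout of beta-catenin signalling (chromosome 11, 108917828 to 108950783, plus strand), was at 4.16 FPKM in mesenchyme and 22.4 FPKM in bud, a difference of -2.18. Taken from its most abundant transcript alone, the difference was -1.81 and fell short of the rule. Axin1, the scaffold that is not itself a common target, was at 16.4 FPKM in mesenchyme and 29.0 in bud. Ctnnb1 was the most abundant of the 46 genes in both tissues, at 109 and 150.0 FPKM, a difference of -0.45 that became 0.08 after rescaling. Of the genes for ligand release, Wls was at 9.11 FPKM in mesenchyme and 36.8 in bud, a difference of -1.90, and Porcn at 0.851 and 2.13 FPKM. By accession alone Wls had 4.33 FPKM in mesenchyme and 15.1 in bud. Taken from its most abundant transcript alone, Wls passed the 4-fold rule in bud.

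The 9 genes under 1 FPKM in both libraries reached at most 0.794 FPKM in mesenchyme (Dkk2) and 0.451 FPKM in bud (Wif1). Sfrp5 and Dkk4 were listed at 0 in both. For all 9 genes past the 4-fold rule, the intervals of the most abundant transcript in the authors' deposited table did not overlap. For Rnf43 that interval was listed as 0 to 0 in mesenchyme. Separate intervals were also usual among the other genes described here. There the mesenchyme interval lay above for 9 and the bud interval for 17, and the intervals overlapped for 11. The called genes had been taken for large differences in the same deposited values, so their separate intervals add little. The share over all protein-coding genes was not counted.

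Beyond the 46 genes, 73 others of the pathway were read in the same way, and 55 were tested. At least 4-fold higher in mesenchyme were 3: Shisa3, of a family that in frogs holds back Frizzled receptors, at 83.3 FPKM there and 0.432 in bud, Dact1 at 14.4 and 0.577, and Dact3 at 24.3 and 2.75, both of a family that binds Dishevelled. At least 4-fold higher in bud were 11. Dact2 of the same family was at 0.318 FPKM in mesenchyme and 25.0 in bud. Wnt11, the ligand of the ureteric tip, was at 1.31 and 32.3 FPKM in that order, while Wnt6, Wnt9b and Wnt7b were listed at 0 FPKM in mesenchyme and had 18.0, 16.5 and 3.32 FPKM in bud. The others were Cthrc1, a cofactor of Wnt and Ror2 (1.43 FPKM in mesenchyme and 28.7 in bud), the cell cycle gene Ccnd1 (9.39 and 117), Tnfrsf19 (1.01 and 17.2), the antagonist Sostdc1 (listed at 0, and 6.43), and Vangl1 of planar polarity (1.61 and 14.0), and the last by size is not named. After rescaling, Wnt7b at -1.72 and the gene not named at -1.54 fell short of the rule. None of 13 tested genes of signal relay and none of 10 nuclear cofactors passed the rule, and their medians were -0.61 and -0.38. The Wnt ligands past the rule were 4 of 7 tested, all higher in bud.

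At the promoters, H3K4me3 was present at 44 of the 46 genes in cap mesenchyme, 39 in ureteric cells and 45 in ES cells, counting at least 1 bp of a peak. Over 21883 protein-coding genes the shares were 63.6%, 59.7% and 67.5%, against 95.7%, 84.8% and 97.8% of the 46. H3K27me3 was present at 12 genes in cap mesenchyme, 12 in ureteric cells and 22 in ES cells, or 26.1%, 26.1% and 47.8%, against 7.69%, 11.0% and 11.9% of all genes. A promoter could hold either mark alone, both marks or neither, which gives 4 states. Over all genes, H3K4me3 alone was at 57.7% in cap mesenchyme, 53.2% in ureteric cells and 56.4% in ES cells. Both marks were at 5.88%, 6.46% and 11.1% of all genes in that order, and H3K27me3 alone at 1.81%, 4.57% and 0.74%. Sorted cells are mixtures, so both marks at a promoter need not lie in the same cell. Of the 46 genes, 33 had the same state in cap mesenchyme and ureteric cells and 13 differed (28.3%, against 12.5% of all genes).

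**Figure D2:**
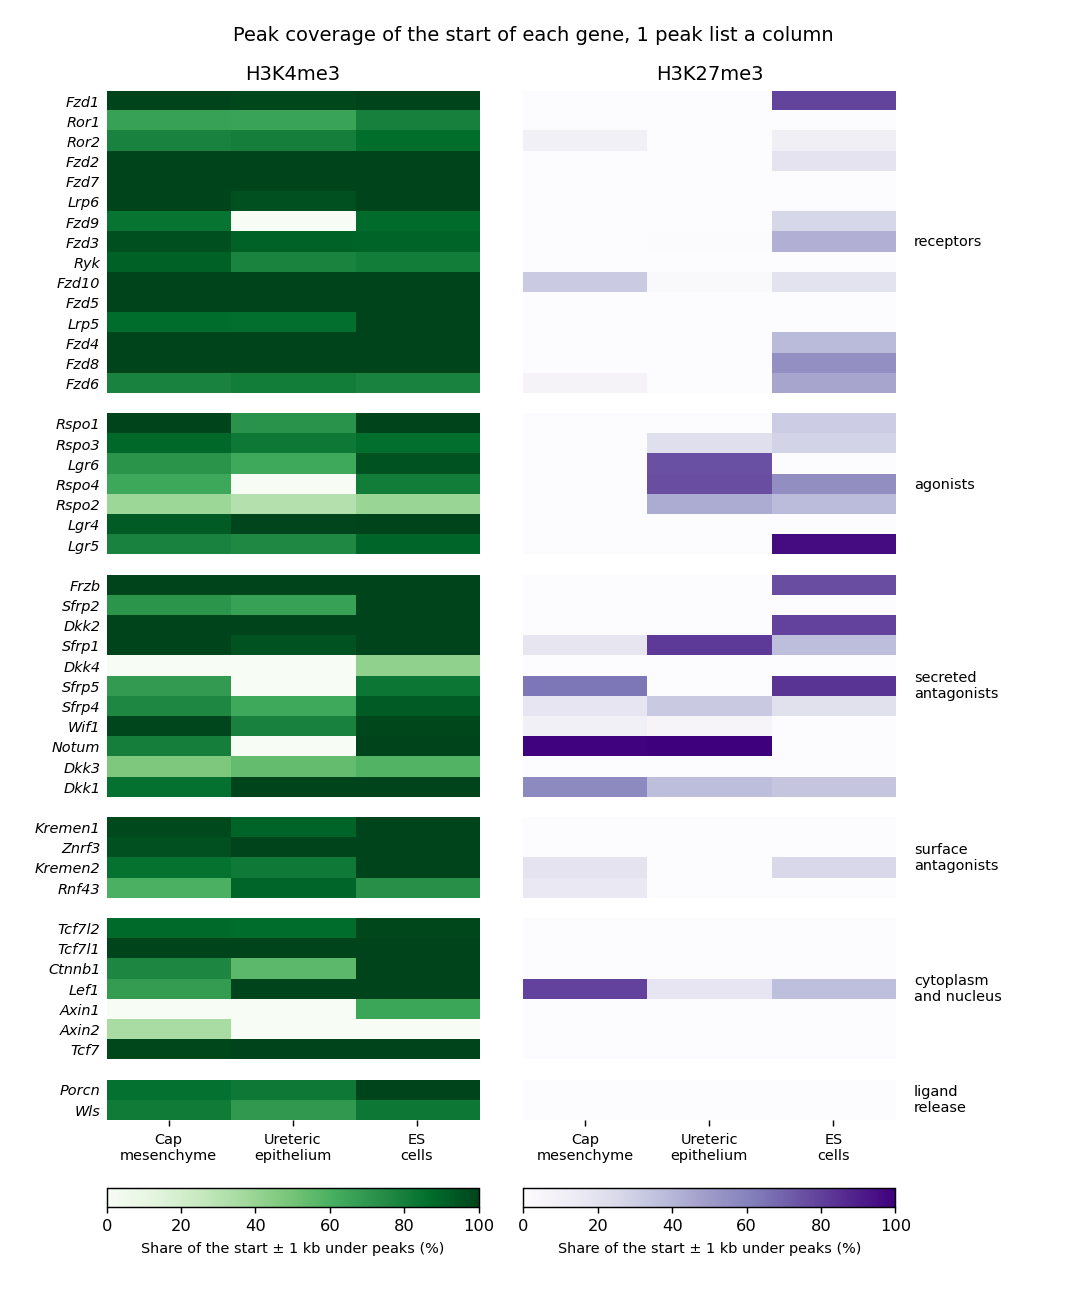
Share of the start plus and minus 1 kb that lay under H3K4me3 peaks (left) and H3K27me3 peaks (right) for each of the 46 genes in cap mesenchyme, ureteric cells and ES cells, on a scale of 0 to 100%. The 7 agonist rows are blank for H3K27me3 in cap mesenchyme, while Rspo2, Rspo3, Rspo4 and Lgr6 are shaded in ureteric cells.

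H3K4me3 lay in cap mesenchyme without a counterpart in ureteric cells at 5 genes (Fzd9, Rspo4, Sfrp5, Notum and Axin2), or 10.9%, against 4.58% of all genes. The reverse was found at 0 of 46, against 0.681% of all genes. H3K27me3 lay in cap mesenchyme without a counterpart in ureteric cells at 5 genes (Fzd6, Ror2, Sfrp5, Kremen2 and Rnf43), against 2.28% of all genes. It lay in ureteric cells without one in cap mesenchyme at 5 others (Fzd3, Rspo2, Rspo3, Rspo4 and Lgr6), against 5.62% of all genes. Narrow peaks carry many of these calls, and of the H3K4me3 ones Fzd9, Rspo4 and Notum were kept under all 6 other settings tried, Sfrp5 under 5 and Axin2 under 1. Of the H3K27me3 ones Sfrp5 and Rspo4 alone were kept under all 6.

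The agonists and their receptors shared a state in cap mesenchyme. All 7 carried H3K4me3 without H3K27me3 in cap mesenchyme at the start plus and minus 1 kb, but with 2 kb on each side Rspo2, Lgr5 and Lgr6 carried both marks there. In ureteric cells 3 of them (Rspo1, Lgr4 and Lgr5) were in that state, 3 carried both marks (Rspo2, Rspo3 and Lgr6) and Rspo4 carried H3K27me3 alone. In ES cells 5 of the 7 carried both. The shares of all genes with H3K27me3 and in each state are given above. The lowest score kept in the H3K27me3 lists was 40 for cap mesenchyme, 30 for ureteric cells and 40.01 for ES cells. The ureteric list thus reaches lower.

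At Rspo4 the kidney populations held opposite marks. The 300 bases printed above lay under an H3K4me3 peak along their whole length in cap mesenchyme and in ES cells and under none in ureteric cells, where H3K27me3 covered 100% of them. That ureteric peak scored 37.5, under the lowest score of the cap mesenchyme list, and the other ureteric peak in the window, with a score of 76.5, ended at -0.624 kb, outside the printed bases. Over the wider start plus and minus 1 kb, H3K27me3 covered 0% in cap mesenchyme, 76.0% in ureteric cells and 54.9% in ES cells. Rspo4 RNA was 0.0488 FPKM in mesenchyme and listed at 0 in bud, so the H3K4me3 in cap mesenchyme had little RNA of E11.5 beside it. Rspo3 carried no H3K27me3 at its start in cap mesenchyme and, in ureteric cells, a peak of 1.97 kb over 21.5% of the window, with a score of 49. With a minimum score of 50 in every list, that peak was lost in ureteric cells, as were those at Fzd3, Sfrp4 and Lef1, which left 8 of the 12 genes with H3K27me3 there. With that minimum, 6.36% of all genes had H3K27me3 in ureteric cells. Rspo2 and Lgr6 had none in cap mesenchyme and H3K27me3 over 43.9% and 75.4% of the window in ureteric cells.

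Rspo1 differed in the extent of H3K4me3. Its peak was 7.07 kb wide in cap mesenchyme, 1.74 kb in ureteric cells and 2.96 kb in ES cells. The cap mesenchyme peak held the score of 3100, a value shared by 4138 peaks of that list, while the ureteric peak scored 73, where the lowest score of its list was 50.01. The scores are the authors' own and were mostly used within each list. The lowest scores and the common minimum of 50 do set lists side by side, and the lists need not share a scale. Within 5 kb of the Rspo1 start, no H3K27me3 peak lay in cap mesenchyme, while 2 covered 1.82 kb in ureteric cells, all beyond 1 kb from the start.

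**Figure D3:**
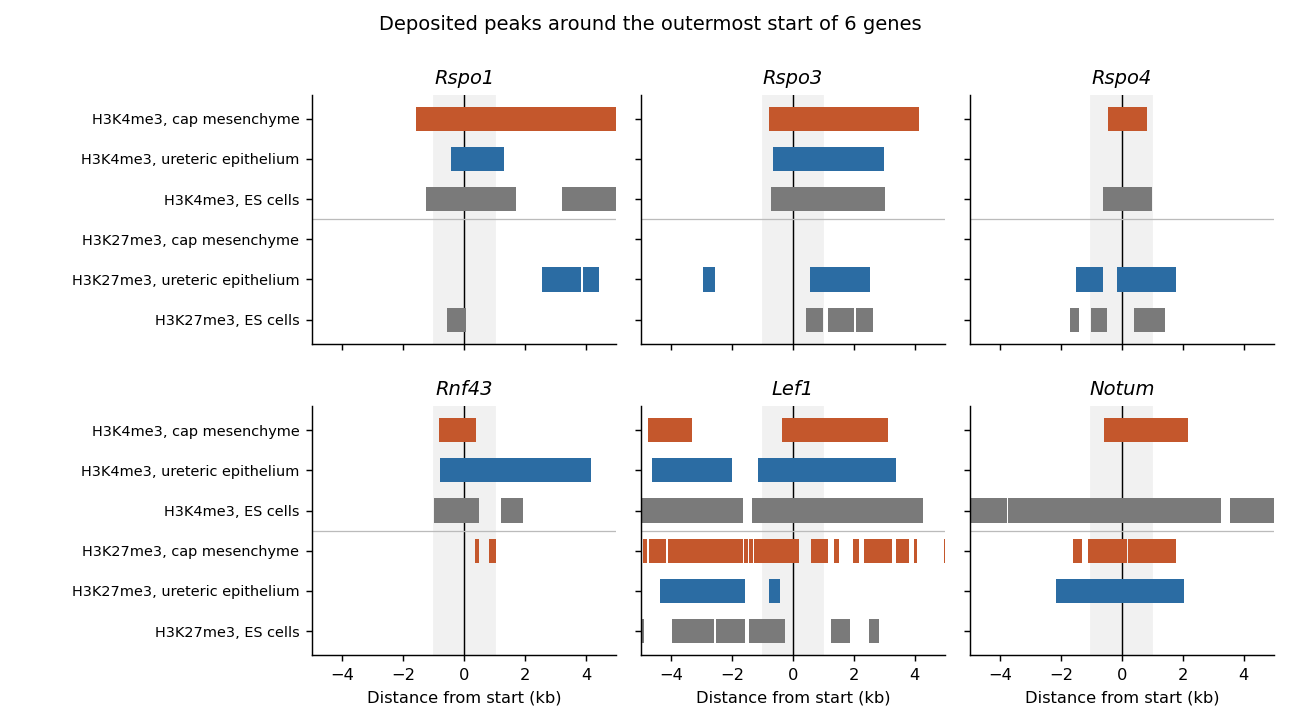
Deposited peaks within 5 kb of the outermost start of 6 genes, drawn in the direction of each gene, with H3K4me3 in the upper and H3K27me3 in the lower rows and cap mesenchyme, ureteric cells and ES cells in order within each. Grey bands mark the start plus and minus 1 kb. The H3K4me3 peak is wider in cap mesenchyme at Rspo1 (7.07 against 1.74 kb) and narrower in cap mesenchyme at Rnf43 (1.20 against 4.94 kb). These are widths of whole peaks, and the Rspo1 peak in cap mesenchyme is cut at the 5 kb edge of the drawing.

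The surface antagonists were all in the H3K4me3 only state in ureteric cells, as were 53.2% of all genes. In cap mesenchyme, Kremen2 and Rnf43 had both marks, with narrow H3K27me3 peaks of 0.242 and 0.229 kb. Over the Kremen2 gene body H3K27me3 covered 42.0% in cap mesenchyme and 55.4% in ureteric cells. At Rnf43 the H3K4me3 peak was 1.20 kb wide in cap mesenchyme, 4.94 kb in ureteric cells and 1.47 kb in ES cells. The printed 300 bases of Rnf43, the least rich in G and C of the 28 genes at 46.7%, lay under H3K4me3 in all 3 populations. Znrf3 and Kremen1 carried H3K4me3 without H3K27me3 in all 3.

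Of the 11 secreted antagonists, 6 had both marks in cap mesenchyme, and in ureteric cells 4 had both and Notum had H3K27me3 alone. Over all genes, both marks were at 5.88% in cap mesenchyme and 6.46% in ureteric cells, and H3K27me3 alone at 4.57% in ureteric cells. Notum was covered by H3K27me3 over 99.2% of the window in cap mesenchyme and 100% in ureteric cells, where the peak was 4.21 kb wide and H3K4me3 was missing. In ES cells Notum had no H3K27me3 and an H3K4me3 peak of 6.98 kb. Sfrp5, listed at 0 FPKM in both tissues, had both marks in cap mesenchyme and in ES cells and neither in ureteric cells.

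Sfrp1 carried both marks in all 3 populations although its RNA was 9.35 FPKM in mesenchyme and 6.29 in bud. H3K27me3 covered 17.9% of its window in cap mesenchyme, 81.5% in ureteric cells and 36.9% in ES cells. Dkk1 also had both marks in all 3, with H3K27me3 over 56.7%, 36.9% and 33.8% in that order and H3K4me3 over 85.5%, 100% and 100%. Its printed 300 bases, including the CTTTGAA and CTTTGTT matches, lay under H3K4me3 and outside H3K27me3 peaks in each population. Sfrp4 and Wif1 had both marks in cap mesenchyme and ureteric cells, while Sfrp2, Frzb, Dkk2 and Dkk3 had H3K4me3 only there. Dkk4 had neither in the kidney populations.

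Receptor promoters were mostly in the H3K4me3 only state, 12 of 15 in each kidney population, and 9 of the 15 carried both marks in ES cells. Over all genes, H3K4me3 alone was at 57.7% in cap mesenchyme and 53.2% in ureteric cells, and both marks at 11.1% in ES cells. Fzd10 was the only receptor with both marks in all 3 populations. Fzd9, which had no RNA above 0.268 FPKM, had an H3K4me3 peak of 1.81 kb in cap mesenchyme, none in ureteric cells and both marks in ES cells. Fzd6 and Ror2 had H3K27me3 in cap mesenchyme and not in ureteric cells, over 6.35% and 9.35% of the window. Fzd6 RNA was higher in bud and Ror2 RNA in mesenchyme, so this mark sat beside opposite RNA differences. At Fzd3 the ureteric H3K27me3 peak touched 0.5% of the window.

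Of the 7 genes of cytoplasm and nucleus, Lef1 alone carried H3K27me3 at its outermost start. Both marks were present in all 3 populations, but H3K27me3 covered 79.1% of the window in cap mesenchyme, 17.3% in ureteric cells and 36.6% in ES cells. Within 5 kb of the Lef1 start, 18 H3K27me3 peaks covered 7.37 kb in cap mesenchyme, against 3.13 kb under 2 peaks in ureteric cells. Tcf7, Tcf7l1, Tcf7l2 and Ctnnb1 carried H3K4me3 without H3K27me3 in all 3, although Tcf7 RNA was at 2.74 FPKM in mesenchyme and 70.5 in bud. An inner start of Tcf7l2, 153524 bp from the outermost, had H3K4me3 in all 3 populations while H3K27me3 covered none of its window in cap mesenchyme, 60.3% in ureteric cells and 22.7% in ES cells. Axin1 and Axin2 were poorly served by the outermost start. The Axin2 start 2521 bp inside carried H3K4me3 in all 3 populations without H3K27me3, under peaks of 6.40, 6.19 and 6.48 kb, and Axin1 had H3K4me3 within the gene body in all 3.

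ES cells, which model the early embryo before any kidney lineage, had both marks at 22 of the 46 promoters, or 47.8%, against 11.1% of all genes. Of these 22, 13 had H3K4me3 only and 9 kept both in cap mesenchyme, while in ureteric cells 11 had H3K4me3 only, 8 both, 1 (Rspo4) H3K27me3 only and 2 (Fzd9 and Sfrp5) neither. For 2436 protein-coding genes with both marks in ES cells, cap mesenchyme had H3K4me3 only at 57.2% and both at 37.7%, and ureteric cells had H3K4me3 only at 42.7%, both at 37.8% and H3K27me3 only at 13.6%. The shares of the 22 in cap mesenchyme, 59.1% and 40.9%, were close to those of all such genes. In both kidney populations Fzd10, Sfrp1, Sfrp4, Dkk1 and Lef1 had both marks. In ureteric cells Sfrp4 and Lef1 were H3K4me3 only with a minimum score of 50, and Sfrp4, Dkk1 and Lef1 with lists of equal length. Of the 23 genes with H3K4me3 only in ES cells, 3 carried H3K27me3 in cap mesenchyme (Wif1, Rnf43 and Notum). Lgr6, Wif1 and Notum of the 23 carried it in ureteric cells. The share over all genes with H3K4me3 only in ES cells was not counted.

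**Figure D4:**
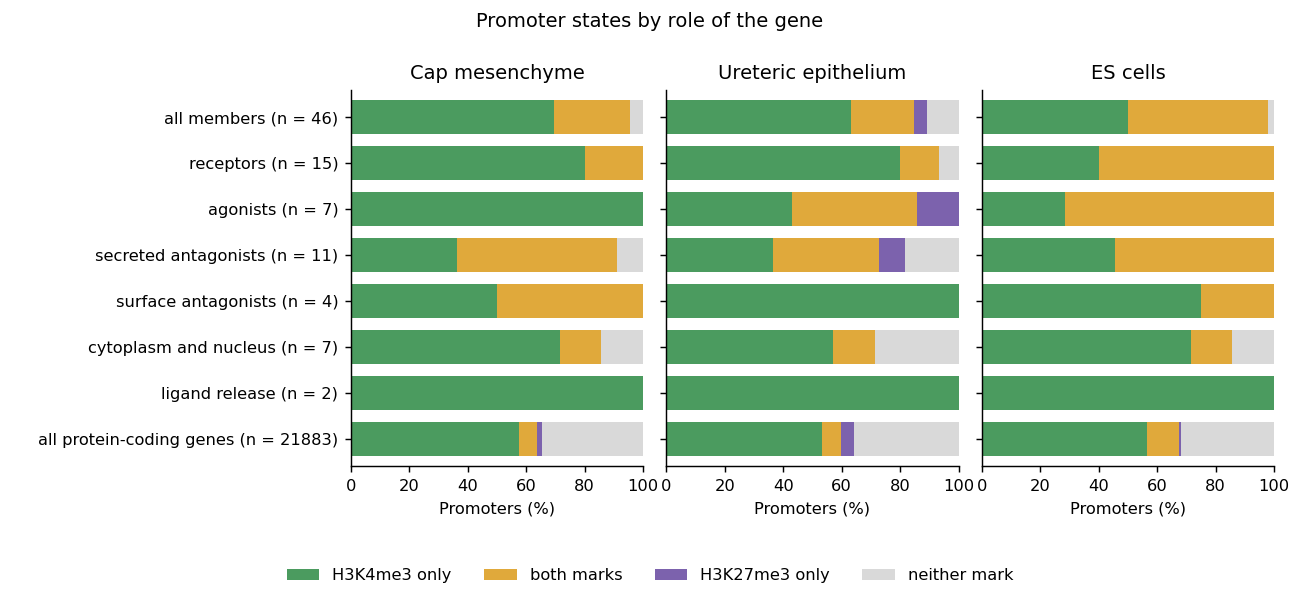
Share of promoters in each of the 4 states for all 46 genes, for each role and for all 21883 protein-coding genes, in cap mesenchyme, ureteric cells and ES cells. Agonists are H3K4me3 only at 7 of 7 promoters in cap mesenchyme and at 3 of 7 in ureteric cells, and surface antagonists at 2 of 4 and 4 of 4.

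The width of the H3K4me3 peak at the start was then set beside the RNA, a comparison chosen after the values were seen. Peaks at the start were present in both kidney populations for 39 of the 46 genes. All 3 genes at least 4-fold higher in mesenchyme had the wider peak in cap mesenchyme: 7.07 against 1.74 kb in ureteric cells at Rspo1, 4.91 against 3.64 kb at Rspo3 and 4.70 against 3.65 kb at Frzb. All 5 genes at least 4-fold higher in bud with both peaks had the narrower one in cap mesenchyme. In cap mesenchyme and ureteric cells, in that order, the widths were 1.20 and 4.94 kb at Rnf43, 1.99 and 4.15 kb at Dkk1, 2.02 and 3.32 kb at Tcf7, 1.76 and 2.22 kb at Fzd6, and 5.29 and 6.60 kb at Fzd8. Axin2, the other gene of that group, had no ureteric peak at its outermost start, and at the inner start its widths were 6.40 and 6.19 kb.

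Over all protein-coding genes with both peaks, 74.9% of 12892 had the wider peak in cap mesenchyme. That share was 87.5% of 160 genes at least 4-fold higher in mesenchyme and 24.0% of 391 genes at least 4-fold higher in bud. Of the 46 genes, 26 had both peaks and a tested difference under 4-fold, and 13 of these 26 were wider in cap mesenchyme, against 76.5% of 9725 genes under 4-fold. The RNA and the marks come from different ages, with different sorting, and the number of reads behind each peak list is unknown, so the part of depth in these widths was not tested.

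**Figure D5:**
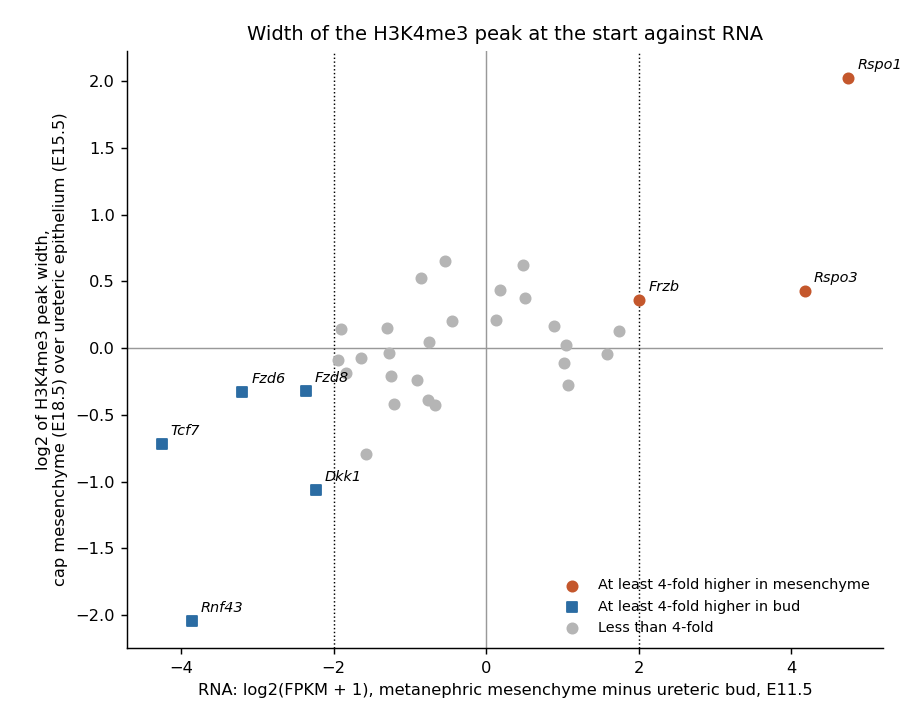
Log2 ratio of the width of the H3K4me3 peak at the start, cap mesenchyme over ureteric cells, against the log2(FPKM + 1) difference of RNA, for the genes tested in RNA that had a peak in both populations. Rspo1 lies at 2.02 in width and 4.75 in RNA, and Rnf43 at -2.04 and -3.86, at opposite corners.

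Of the 73 other genes of the pathway, 17 had H3K27me3 at the start in cap mesenchyme, 18 in ureteric cells and 31 in ES cells. Wnt ligands made up 13 of these in each kidney population, out of 19 ligands, and 15 in ES cells. None of 14 relay genes had H3K27me3 in any population, and of 10 nuclear cofactors 1 had it, in ES cells. Wnt9b carried both in cap mesenchyme and H3K27me3 only in ureteric cells despite 16.5 FPKM in bud at E11.5.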

How the data were processed

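The submitters' processing notes name Bowtie2 and MACS for the chromatin reads, TopHat, Cufflinks and Cuffdiff for the RNA, and the build mm10. Their versions, settings and the libraries behind each list are not given in the sources used here. RNA levels were the deposited FPKM of the authors' Cuffdiff table, with transcript length in bp also deposited there. Each deposited peak carries a score of the authors' caller, whose meaning is not given in the sources used here. The 3 input libraries were not analysed here. Of 138486 transcripts, 106331 were paired with a gene by RefSeq accession and 18189 by sharing an assembled locus with one. The 1245 antisense transcripts were kept apart, and the 5290 without a reference (93.6% of the mesenchyme FPKM and 93.9% of the bud FPKM) were left out. Differences are log2(FPKM + 1), metanephric mesenchyme minus ureteric bud, which understates the change of low genes. Promoters are the outermost start plus and minus 1 kb, with strand from the RefSeq promoter table for 28 of the 46 genes and from the order of loci for 18 (the sources gave the same strand for 16972 of 16972 genes that had both). With 1 sample a group no test was run. Of the 46 genes, those that reached 1 FPKM in either library and those whose state differed between the kidney populations are described with values, and the others by range and count; other pathway genes are named past the 4-fold rule, at most 10 a direction by size. Genes and lists were chosen with earlier results of these data known. Calls and overlaps were tested on simulated data with Python 3.11.15, pandas 2.3.3 and numpy 2.4.6. The simulated RNA differences were well past the 4-fold limit and set in genes above the FPKM floor. Calls near the limit or the floor were therefore not covered. Alternatives covered the pseudocount, scaling, transcript choice, pairing, window, score and list length.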

Additional observations from a re-analysis of the deposited data

How the results depend on the processing

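None of the 9 genes past the 4-fold rule changed direction under the RNA alternatives run. Under 4-fold, Ctnnb1 and Rspo2 changed sign after rescaling, Rspo2 also by its most abundant transcript alone, and Notum by accession only. All 9 called genes remained past the rule with a pseudocount of 0.1 FPKM, with no minimum on FPKM and with pairing by accession only, the last chosen after seeing the data. Rescaling both libraries to a common median left 6 of the 9 and gave 5 genes on the mesenchymal and 3 on the bud side. The most abundant transcript alone left 8 of the 9, without Axin2, and added Tcf7l2 and Wls. The median difference of the genes, -0.77 as reported, was -0.89 with a pseudocount of 0.1, -0.34 after rescaling, -0.91 from the most abundant transcript alone, -0.50 over all genes with an RNA value and -0.79 by accession only. Mark counts moved with the peak filter. Keeping the better-scored 50% of every list, 10 genes had H3K4me3 in cap mesenchyme without it in ureteric epithelium, as did 11.0% of all genes. With lists of a mark cut to equal length, H3K27me3 was at 6 genes in cap mesenchyme and 5 in ureteric epithelium. The shares of all genes were 4.14% and 4.85%. Of the pair, 3 genes had it in cap mesenchyme alone and 2 in ureteric epithelium alone, against 1.27% and 1.98% of all genes. With peaks over at least 50% of the window, H3K27me3 was at 4, 4 and 7 genes in cap mesenchyme, ureteric epithelium and ES cells. All genes gave 2.24%, 4.48% and 4.82% in that order. H3K27me3 lay in 1 kidney population alone at 3 and 3 genes, against 0.315% (cap mesenchyme) and 2.55% (ureteric epithelium) of all genes. At 1 gene H3K4me3 lay in ureteric epithelium alone, against 0.823% of all genes. With a common minimum score of 50, chosen after seeing the data, 7 genes had H3K27me3 in cap mesenchyme alone of the pair and 3 in ureteric epithelium alone. The shares of all genes there were 2.17% and 2.44%. The cause of these moves was not tested. The other 56 values of counts and medians were not counted as moved, though some changed. With a pseudocount of 0.1, genes 4-fold higher in bud rose from 6 to 9, and over all genes from 466 to 752. Keeping the better-scored 50%, H3K4me3 fell from 39 to 32 genes in ureteric epithelium, and from 59.7% to 48.2% of all genes. With lists of equal length it fell from 45 to 36 genes in ES cells, and from 67.5% to 56.7% of all genes. No paired analysis was possible because each group holds 1 sample.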
